A study of Mus musculus with 2 samples.

Results

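The matrix metalloproteinases (Mmp), the Adamts proteases, the protease-free Adamts-like proteins (Adamtsl) and the tissue inhibitors of metalloproteinases (Timp) were described in the mouse facial prominence at embryonic day 14.5. Members were chosen by symbol alone, as genes in both deposited gene tables whose Ensembl identifier maps to a protein-coding Mmp, Adamts, Adamtsl or Timp symbol in GENCODE M21, the gene annotation used for names. Mmp9 and 1 further Mmp gene were left out by that rule, so that every Mmp sum below is without them. The rule gave 48 members of 21474 protein-coding genes with a symbol and of 43346 Ensembl genes in all, of which 20 were Mmp, 19 Adamts, 5 Adamtsl and 4 Timp genes.

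Total RNA was sequenced from 2 libraries of a single group, the embryonic facial prominence of strain B6NCrl mice at 14.5 days, with no mutant, treatment or other stage beside it. The labels number the libraries as biological replicate 2 and biological replicate 1, and describe each as 1 cranioface collected on its own day, although the same labels give the sex as pooled. Each library was made from 10 ng of RNA with a SMART-seq protocol, and held 37738872 expected counts in replicate 2 and 30919488 in replicate 1, of which the members took 0.213% and 0.230%. Markers of facial mesenchyme were present in both libraries, with Prrx1, a transcription factor of craniofacial mesenchyme, at 78.76 TPM in replicate 2 against 80.14 TPM in replicate 1. With a single pair of libraries no test of a difference was possible. Values are therefore given per library in TPM (transcripts per 1000000), a level scaled to transcript length and library total, and an SD is over the 2 libraries.

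Matrix metalloproteinases are zinc enzymes that cut collagens, proteoglycans and cell-surface proteins, and most are held inactive by a propeptide until it is cleaved. Adamts proteases share the zinc-binding active site and carry thrombospondin repeats that bind them to matrix, and the Adamtsl proteins have such repeats but no protease domain. Timps are small secreted proteins that fill the active site, and in growing facial tissue these families are known for remodelling the matrix around mesenchyme, vessels, cartilage and bone.

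The stretch that defines the proteases is the zinc-binding site, in which 3 histidines hold the catalytic zinc. The coding bases of this site are shown for the most abundant members of each protease family and for Mmp13, the member that differed most between the libraries, since they show what the enzymes share and where the families part. Capitals mark the 3 histidine codons, and the bases come from the GENCODE M21 transcripts on mm10.
Mmp2: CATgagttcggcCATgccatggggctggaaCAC
Mmp14: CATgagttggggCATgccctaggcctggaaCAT
Mmp11: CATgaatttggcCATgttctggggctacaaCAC
Mmp13: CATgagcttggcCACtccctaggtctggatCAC
Adamts10: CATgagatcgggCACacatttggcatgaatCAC
Adamts1: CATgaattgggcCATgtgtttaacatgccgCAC
Adamts2: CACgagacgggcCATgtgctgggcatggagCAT

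The site was encoded by 20 of 20 Mmp genes and 19 of 19 Adamts genes, and by 0 of 5 Adamtsl and 0 of 4 Timp genes. In every Mmp its 33 bases lay within 1 exon, for example in exon 8 of Mmp2 (chr8:92839279-92839311, plus strand), exon 5 of Mmp14 (chr14:54437627-54437659, plus strand), exon 5 of Mmp11 (chr10:75926931-75926963, minus strand) and exon 5 of Mmp13 (chr9:7276573-7276605, plus strand). In the 3 Adamts genes shown the site was split by an intron, in Adamts10 from exon 9 (chr17:33538157-33538279, plus strand), in Adamts1 from exon 3 (chr16:85799191-85799545, minus strand) and in Adamts2 from exon 7 (chr11:50775403-50776134, plus strand). The eighth codon of the site was for glycine in all 20 Mmp genes and in 13 Adamts genes, for asparagine in 5 Adamts genes (Adamts1, Adamts4, Adamts9, Adamts15 and Adamts20) and for serine in 1 (Adamts8). All 6 Adamts genes without the glycine codon belong to the 7 proteoglycanases, the group that cuts versican and aggrecan, of which only Adamts5 had it. The cysteine switch, the propeptide stretch whose cysteine blocks the zinc in latent Mmps, was sought by a fixed pattern of letters. That pattern stood in 14 of 20 Mmp and in 0 of 19 Adamts coding sequences. Variant forms of the switch were not sought, so a gene without the pattern may still encode one. A cleavage site of the furin type, by which a proprotein convertase can remove the propeptide, was found ahead of the zinc site in 10 Mmp and 18 Adamts coding sequences, and Adamts7 was the Adamts gene in which this pattern of letters was not found.

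Of the 48 members, 37 (77.1%) had 1 TPM or more in both libraries, the level called expressed here, beside 63.9% of all protein-coding genes. By family this was 10 of 20 Mmp, 18 of 19 Adamts, 5 of 5 Adamtsl and 4 of 4 Timp genes, so that the unexpressed members were 10 Mmp genes and Adamts13. The families together summed to 969.5 TPM in replicate 2 against 1112 TPM in replicate 1. Mmp genes made up 51.8% of that sum in replicate 2 and 52.3% in replicate 1, Timp genes 25.7% and 24.0%, Adamts genes 18.6% and 19.4%, and Adamtsl genes 3.94% and 4.32%. In bulk RNA such levels cannot tell fewer cells of an expressing type from less RNA per cell.

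**Figure D1:**
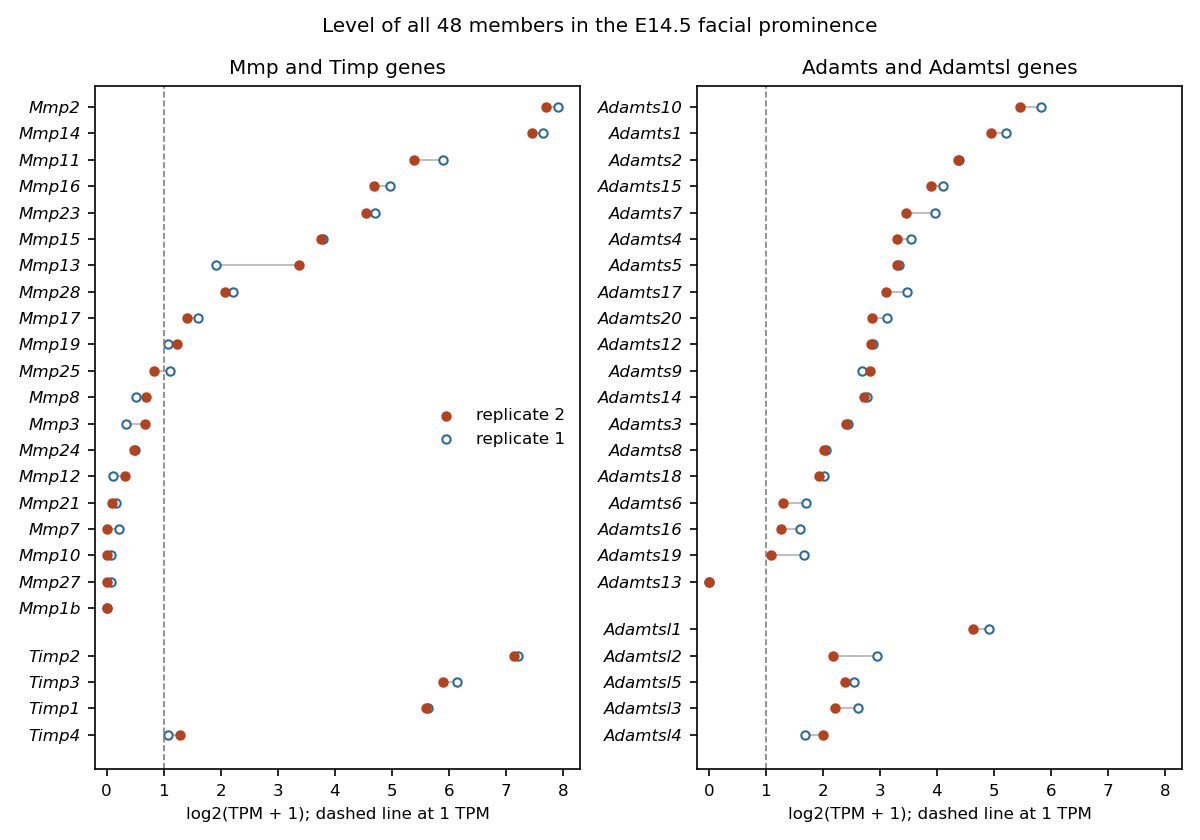
Level of all 48 members as log2(TPM + 1), with Mmp and Timp genes on the left and Adamts and Adamtsl genes on the right, each ordered by mean level within its family. Filled points are replicate 2, open points replicate 1, and the dashed line marks 1 TPM. Mmp2, Mmp14 and Timp2 stand above all other members, and the widest gap among the Mmp genes is that of Mmp13.

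Much of the family's RNA came from a trio known to act together at the cell surface, where Mmp14 activates the Mmp2 proenzyme with Timp2 as the bridge between them. Mmp2, a secreted gelatinase that cuts denatured collagen and basement membrane collagen, had 207.29 TPM in replicate 2 against 240.68 TPM in replicate 1, a mean of 224 ± 23.6 TPM (SD, n = 2), and ranked 566 of 21474 protein-coding genes. Mmp14, the membrane-anchored collagenase, had 175.52 TPM in replicate 2 against 201.09 TPM in replicate 1 and ranked 704. Timp2 had 141.06 TPM in replicate 2 against 147.20 TPM in replicate 1 and ranked 934. The order Mmp2, Mmp14, Timp2 held without overlap between the values of the libraries. The trio summed to 523.9 TPM in replicate 2 against 589.0 TPM in replicate 1, which was 54.0% and 53.0% of the TPM of all members. The proportions within the trio were close in the 2 libraries: the Mmp14 level was 0.847 of the Mmp2 level in replicate 2 and 0.836 in replicate 1, and the Timp2 level was 0.680 and 0.612 of the Mmp2 level.

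Protein-coding transcripts took 100% of the TPM of Mmp2, Mmp14 and Timp2 in both libraries. Mmp2 lies at chr8:92827291-92853420 and Mmp14 at chr14:54431612-54445364, both on the plus strand, and Timp2 at chr11:118301069-118355740 on the minus strand. Their counts were large, for example 15525 for Mmp2 in replicate 2 and 13948 in replicate 1, and relative to the median gene the Mmp2 count was 0.955-fold in replicate 2 over replicate 1 (95% interval 0.934 to 0.977, exact binomial, counting error only).

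The other membrane-bound Mmp genes followed at lower levels. Mmp16, a transmembrane enzyme of the same subgroup as Mmp14, had 24.67 TPM in replicate 2 against 30.42 TPM in replicate 1. Mmp15, the third of that subgroup, had 12.58 TPM in replicate 2 against 12.84 TPM in replicate 1. Mmp24, the fourth, known for its expression in neurons, was below the expressed level with 0.39 TPM in replicate 2 against 0.41 TPM in replicate 1. Mmp24 shares 637 exonic bases, 13.6% of its own, with the opposite-strand gene BC029722. That gene had 8.19 TPM in replicate 2 against 9.87 TPM in replicate 1. The strand setting of the counting is not given in the sources used here, so the low Mmp24 level is uncertain. Thus 3 of 4 transmembrane Mmp genes were expressed, with a sum of 213.2 TPM in replicate 2 against 244.8 TPM in replicate 1. Mmp23, which has an amino-terminal membrane anchor and lacks the usual cysteine switch, had 22.33 TPM in replicate 2 against 25.28 TPM in replicate 1. The 2 members held by a lipid (GPI) anchor were low: Mmp17 had 1.67 TPM in replicate 2 against 2.05 TPM in replicate 1, and Mmp25 had 0.78 TPM and 1.15 TPM.

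Among secreted enzymes that are activated by furin-type cleavage inside the cell, Mmp11 (stromelysin-3), typically a product of mesenchymal cells, was the highest. It had 41.05 TPM in replicate 2 against 58.37 TPM in replicate 1, and its count, relative to the median gene, was 0.771-fold in replicate 2 over replicate 1 (95% interval 0.727 to 0.818, exact binomial, counting error only). Mmp11 shares 155 exonic bases, 5.58% of its own, with Chchd10 on the opposite strand, which had 33.36 TPM in replicate 2 against 18.78 TPM in replicate 1. Whether the counting used strand is not given in the sources used here, so reads from the shared bases cannot be assigned with certainty. Mmp28 (epilysin) had 3.22 TPM in replicate 2 against 3.63 TPM in replicate 1, and Mmp21, known for its part in left-right asymmetry, had 0.07 TPM and 0.12 TPM.

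Mmp19 was just above the expressed level, with 1.36 TPM in replicate 2 against 1.10 TPM in replicate 1. It shares 789 exonic bases, 22.3% of its own, with the opposite-strand gene Tmem198b, which had 10.42 TPM in replicate 2 against 12.12 TPM in replicate 1. Its level is therefore uncertain. Of all members 13 share exonic bases with another gene, in each case on the opposite strand. Among Mmp genes with a furin-type site the summed level was 282 TPM in replicate 2 against 335 TPM in replicate 1, and among those without one, Mmp2 being the highest, it was 219 TPM and 246 TPM.

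The collagenases, stromelysins and related secreted enzymes sit in a gene cluster on chromosome 9, of which 8 genes were members. Mmp13 (collagenase 3), which cuts fibrillar collagen and is known in mice from hypertrophic chondrocytes and osteoblasts, was the only 1 of the 8 at 1 TPM or more in both libraries. Mmp13 had 9.37 TPM in replicate 2 against 2.78 TPM in replicate 1, from 615 and 141 counts. Replicate 2 was thus the higher, and after centring on the median gene the log2 difference was 1.59, a 3.02-fold difference on the TPM + 1 scale. On counts it was 3.74-fold, with an interval of 3.11 to 4.53 for counting error alone. Mmp13 lies at chr9:7272514-7283331 on the plus strand, and all of its TPM was on protein-coding transcripts.

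The other 7 cluster genes were below 1 TPM in both libraries, from Mmp12 at 71.9 kb from the start of Mmp13 to Mmp7 at 420 kb. Mmp8, the neutrophil collagenase, had 0.62 TPM in replicate 2 against 0.43 TPM in replicate 1. Mmp3 (stromelysin-1) had 0.60 TPM in replicate 2 against 0.27 TPM in replicate 1, and Mmp12 (macrophage elastase) had 0.25 TPM and 0.08 TPM. Beside them the neutrophil markers summed to 96.6 TPM in replicate 2 against 83.1 TPM in replicate 1, with 3 of 5 expressed, although Mpo (0.58 TPM in replicate 2 against 2.19 TPM in replicate 1) and Elane (0.53 and 1.73 TPM), both neutrophil granule enzymes, were past 1.5-fold lower in replicate 2. The macrophage markers summed to 167 TPM in replicate 2 against 143 TPM in replicate 1, with 4 of 4 expressed. The part of these markers in the Mmp8 and Mmp12 levels was not tested. Mmp7, Mmp10 and Mmp27 had 0 counts in replicate 2 and 3, 2 and 2 counts in replicate 1. Mmp1b had 0 counts in both libraries, which for its length leaves room for up to 0.0872 TPM in replicate 2 against 0.113 TPM in replicate 1 (3 counts, counting error only). The count of Mmp3, 26 in replicate 2 against 9 in replicate 1, was 2.48-fold relative to the median gene, with an interval of 1.13 to 6.01 for counting error alone. For Mmp8 (0.898 to 2.89) and Mmp12 (0.926 to 19.0) the interval of this ratio included 1.

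**Figure D2:**
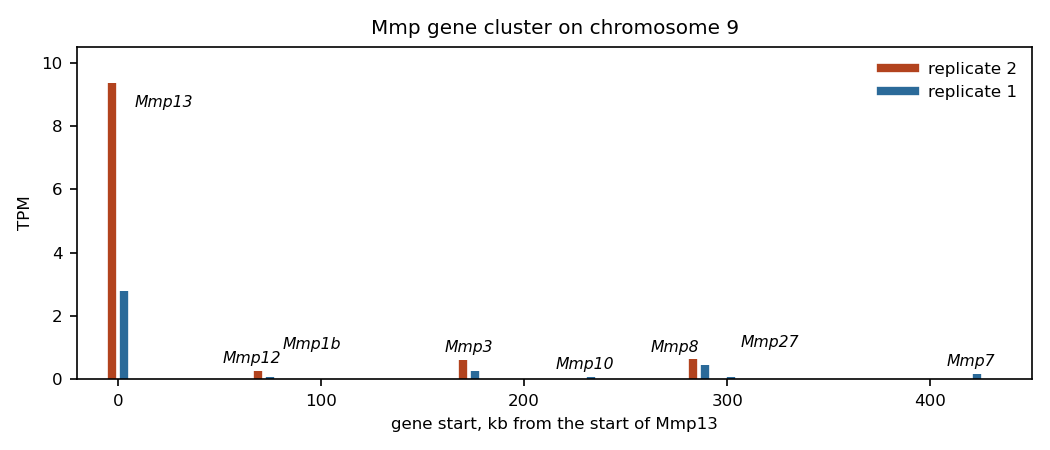
Level in TPM of the 8 members in the chromosome 9 cluster, placed by the distance of the gene start from the start of Mmp13 in kb, with replicate 2 in red and replicate 1 in blue. Mmp13, at 9.37 TPM in replicate 2 against 2.78 TPM in replicate 1, is the only gene of the cluster whose bars pass 1 TPM.

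The bases just ahead of the Mmp13 start are shown because this gene alone of its cluster was expressed. They span chr9:7272364-7272513 on the plus strand of GRCm38.p6 and come from RefSeq. Capitals mark, from left to right, ACCACA, a core Runx site, at bases 118 to 113 upstream of the start, TGACTCA, an AP-1 site for Fos and Jun dimers, at 35 to 29, and TATAAA at 16 to 11.
Mmp13: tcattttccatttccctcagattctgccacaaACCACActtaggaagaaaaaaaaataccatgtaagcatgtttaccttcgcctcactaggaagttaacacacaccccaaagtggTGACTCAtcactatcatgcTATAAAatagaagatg

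These letters were not peculiar to Mmp13. RefSeq promoters, each from 250 bases before the start to 50 after it, matched 34 of the 48 members. The AP-1 letters TGANTCA, on either strand, stood in 6 of the 34 members (17.6%) and in 7.81% of all 32851 promoters, and all 6 were in the chromosome 9 cluster: Mmp13, Mmp1b, Mmp3, Mmp7, Mmp10 and Mmp12. TATAAA, on the sense strand, stood in 9 members (26.5%) and in 8.32% of all promoters, and 6 of the 9 were those same cluster genes. The Runx letters ACCACA, on either strand, stood in 6 members (17.6%) and in 16.8% of all promoters, and their members were Mmp13, Mmp1b, Mmp7, Mmp27, Mmp14 and Mmp23. A match of letters is a description and shows no binding. All 8 cluster genes had a promoter here, and Mmp8 and Mmp27 carried neither the AP-1 nor the TATAAA letters. The 6 that carried both included Mmp13, which was expressed, and Mmp1b, which was undetected.

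Factors known to act on metalloproteinase genes through Runx, AP-1 and Ets sites were measured in both libraries. Runx2, the bone and hypertrophic cartilage regulator, had 21.54 TPM in replicate 2 against 21 TPM in replicate 1. Ets2 had 42.27 TPM in replicate 2 against 45.84 TPM in replicate 1, Jund 44.15 and 39.78 TPM, and Jun 40.76 and 38.14 TPM. Among the Fos partners of Jun, Fos had 8.50 TPM in replicate 2 against 9.83 TPM in replicate 1, and Fosl2 had 8.06 and 5.96 TPM. Of 10 listed regulators of metalloproteinase genes 8 were expressed, and none of these passed 1.5-fold between the libraries.

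Markers of several tissues moved beside Mmp13. The hypertrophic chondrocyte list summed to 1289 TPM in replicate 2 against 812 TPM in replicate 1, with 2 of 4 genes past 1.5-fold, both higher in replicate 2: Ibsp, a mineral-binding matrix protein also made by osteoblasts, at 818.75 and 556.41 TPM, and Spp1 (osteopontin) at 464.04 and 250.70 TPM. Ibsp and Spp1 made up nearly all of the list's sum. Col10a1, the collagen that defines hypertrophic cartilage, had 4.91 TPM in replicate 2 against 3.40 TPM in replicate 1. Ihh, the last gene of the list, had 1.70 TPM in replicate 2 against 1.61 TPM in replicate 1. Neither Col10a1 nor Ihh passed 1.5-fold. The osteoblast list summed to 194 TPM in replicate 2 against 143 TPM in replicate 1, with 1 of 4 genes past 1.5-fold, Bglap (osteocalcin) at 25.25 and 6.44 TPM. The osteoclast list summed to 143 TPM in replicate 2 against 111 TPM in replicate 1, with 1 of the 3 compared past 1.5-fold, the phosphatase Acp5 at 27.40 and 16.83 TPM. The chondrocyte list went the other way, with 376 TPM in replicate 2 against 664 TPM in replicate 1 and 2 of 4 genes past 1.5-fold lower, Col2a1 at 284.66 and 484.24 TPM and Matn1 at 39.34 and 104.39 TPM. Lists outside the skeleton moved too: 4 of 4 periderm genes (215 TPM in replicate 2 against 52.9 TPM in replicate 1) and 3 of 4 skeletal muscle genes (3530 and 2440 TPM) were past 1.5-fold higher in replicate 2. None of the markers of these lists was at 0. Their part in the Mmp13 difference was not tested.

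Adamts genes were broadly expressed at moderate levels, with a sum of 180.4 TPM in replicate 2 against 215.4 TPM in replicate 1, a mean of 198 ± 24.8 TPM (SD, n = 2), and a median member mean of 6.26 TPM. Their 7 proteoglycanases were all expressed and summed to 77.05 TPM in replicate 2 against 88.45 TPM in replicate 1. Adamts1 led them with 29.84 TPM in replicate 2 against 36.15 TPM in replicate 1, and Adamts15 followed with 13.94 TPM and 16.25 TPM. Adamts4 had 8.91 TPM in replicate 2 against 10.64 TPM in replicate 1, and Adamts5, with which it shares the name aggrecanase, had 8.88 TPM and 9.10 TPM. Adamts9, a versican-cleaving enzyme needed for palate closure in mice together with Adamts20, had 6.14 TPM in replicate 2 against 5.46 TPM in replicate 1. Adamts20, the gene of the belted coat mutation, had 6.26 TPM in replicate 2 against 7.71 TPM in replicate 1. Adamts8 was the lowest of the group at 3.08 TPM in replicate 2 against 3.14 TPM in replicate 1.

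Pairs of Adamts genes lie side by side in the genome, and their levels differed. Adamts1 and Adamts5 are 53.1 kb apart on chromosome 16, and Adamts1 was the higher in both libraries. Adamts15 and Adamts8 are 20.1 kb apart on chromosome 9, on opposite strands, and Adamts15 was the higher in both. Adamts13 and Adamtsl2 are 69.8 kb apart on chromosome 2, where Adamts13 had 0 counts in both libraries.

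The 3 procollagen N-proteinases, which remove the amino-terminal propeptide of fibrillar collagens, were close between the libraries in sum, with 29.49 TPM in replicate 2 against 30.19 TPM in replicate 1. Adamts2 had 19.59 TPM in replicate 2 against 19.94 TPM in replicate 1. Adamts14 had 5.58 TPM in replicate 2 against 5.82 TPM in replicate 1, and Adamts3, also an activator of Vegfc, had 4.32 TPM and 4.43 TPM. Their collagen substrates were among the most abundant RNAs listed, with Col1a1 at 3597.64 TPM in replicate 2 against 2955.08 TPM in replicate 1.

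Adamts10, which binds fibrillin microfibrils, had the highest Adamts level per gene at 43.17 TPM in replicate 2 against 56.05 TPM in replicate 1, while its relative Adamts6 had 1.46 TPM and 2.28 TPM. The microfibril genes were expressed beside them, Fbn2 at 81.33 TPM in replicate 2 against 86.87 TPM in replicate 1 and Fbn1 at 46.45 and 49.36 TPM. Of the 2 enzymes known to bind and cut the cartilage protein Comp, Adamts7 had 10.06 TPM in replicate 2 against 14.66 TPM in replicate 1, and Adamts12 had 6.17 TPM and 6.35 TPM. Comp itself had 4.83 TPM in replicate 2 against 7.33 TPM in replicate 1. The count of Adamts7 relative to the median gene was 0.748-fold in replicate 2 over replicate 1 (95% interval 0.688 to 0.813, counting error only), and Adamts7 shares 122 exonic bases with the opposite-strand gene Tbc1d2b. On protein-coding transcripts alone Adamts7 had 5.42 TPM in replicate 2 against 10.58 TPM in replicate 1, and was then past 1.5-fold lower. That call depends on how its reads were split among transcripts. The protein-coding Adamts7-202 had 0.0 TPM in replicate 2 against 2.17 TPM in replicate 1. Adamts7-204, annotated to undergo nonsense-mediated decay, went the other way with 1.97 and 0.63 TPM.

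The remaining Adamts genes ranged from moderate levels to 0. Adamts17, whose human counterpart is linked with that of Adamts10 to Weill-Marchesani-type eye and short-stature disease, had 7.59 TPM in replicate 2 against 10.19 TPM in replicate 1. Adamts18 had 2.84 TPM in replicate 2 against 3.06 TPM in replicate 1, Adamts16 had 1.42 and 2.04 TPM, and Adamts19 had 1.14 and 2.18 TPM. Adamts13, the enzyme that trims von Willebrand factor and is known as a product of liver, had 0 counts in both libraries, although its substrate Vwf had 11.95 TPM in replicate 2 against 10.69 TPM in replicate 1.

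All 5 Adamtsl genes were expressed, with a sum of 38.17 TPM in replicate 2 against 48.00 TPM in replicate 1. Adamtsl1 had the largest share, at 23.72 TPM in replicate 2 against 29.13 TPM in replicate 1. Adamtsl5 had 4.27 TPM in replicate 2 against 4.84 TPM in replicate 1, Adamtsl3 had 3.65 and 5.10 TPM, and Adamtsl4, linked in humans to displacement of the eye lens, had 3.0 and 2.23 TPM. Adamtsl2, whose human gene is mutated in geleophysic dysplasia, a disease of short bones and thick skin, had 3.53 TPM in replicate 2 against 6.70 TPM in replicate 1.

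Timp genes were all expressed. Their sum was 249.2 TPM in replicate 2 against 267.2 TPM in replicate 1, a mean of 258 ± 12.7 TPM (SD, n = 2), with Timp2 making 56.6% and 55.1% of it. Timp3, the inhibitor that binds to matrix and also blocks Adamts4 and Adamts5, had 58.96 TPM in replicate 2 against 70.04 TPM in replicate 1. Timp1 had 47.76 TPM in replicate 2 against 48.87 TPM in replicate 1. Timp4 had 1.43 TPM in replicate 2 against 1.12 TPM in replicate 1, from 48 and 29 counts. The Timp1 level lay between the values of Mmp11 in the 2 libraries, as it did for Adamts10, so that no order among these 3 genes could be given.

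For each unit of Mmp RNA there was less Timp RNA: the Timp sum over the Mmp sum was 0.497 in replicate 2 and 0.460 in replicate 1. With Adamts genes added to the Mmp genes it was 0.365 in replicate 2 and 0.336 in replicate 1. These are ratios of RNA, each per transcript length, and not of protein. On expected counts, which favour long transcripts, the mean Timp over Mmp ratio was 0.588, and without the highest gene of each family it was 0.360.

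Timp1, Timp3 and Timp4 lie within the bounds of the synapsin genes Syn1, Syn3 and Syn2, on the opposite strand. The synapsins, known as synaptic vesicle proteins, were low: Syn1 had 3.94 TPM in replicate 2 against 3.69 TPM in replicate 1, Syn2 had 3.77 and 4.30 TPM, and Syn3 had 1.76 and 1.61 TPM. The annotated exons of Timp3 share 1733 bases, 21.3% of its own, with those of Syn3, while Timp4 shares 90 bases with Syn2 and Timp1 shares none with Syn1. For Timp1 and Timp3 the host gene was thus well below the inhibitor, and for Timp4 it was above it.

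The transcript tables split several Adamts and Adamtsl genes in a way that the gene totals do not show. Of 24 members with a mean of 5 TPM or more, 14 had 90% or more of their TPM on protein-coding transcripts, and 4 had under 50%, both as means of the libraries: Adamts10, Adamts20, Adamtsl1 and Adamtsl2. Adamtsl2 had 51.3% in replicate 2 and 42.8% in replicate 1. In Adamts10 the protein-coding transcript Adamts10-201 took 28.87% of the gene's TPM in replicate 2 and 25.43% in replicate 1, and the transcript Adamts10-207, annotated to undergo nonsense-mediated decay, took 27.23% and 21.72%. The rest was mainly on transcripts annotated with retained introns. Counting protein-coding transcripts alone, Adamts10 had 12.46 TPM in replicate 2 against 14.26 TPM in replicate 1. Its place by mean level was then 4 among Adamts genes, behind Adamts1 (29.37 TPM in replicate 2 against 35.70 TPM in replicate 1), Adamts15 (13.94 and 16.25 TPM) and Adamts2 (14.52 and 15.04 TPM). By the same count the Adamts sum was 131.0 TPM in replicate 2 against 155.1 TPM in replicate 1, and the Adamtsl sum was 20.99 and 25.41 TPM, while the Mmp sum (487.8 and 561.1 TPM) and the Timp sum (248.6 and 266.1 TPM) stayed close to the gene totals.

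In Adamts20 the leading transcript was Adamts20-203, with a retained intron, at 54.41% in replicate 2 and 52.10% in replicate 1. In Adamts2 a processed transcript without an open reading frame annotation, Adamts2-204, took 25.89% in replicate 2 and 24.58% in replicate 1. Timp1 was read as 2 protein-coding transcripts, Timp1-202 at 56.98% in replicate 2 and 59.39% in replicate 1, and Timp1-201 at 43.02% and 40.61%. The leading transcript of Mmp16, Mmp16-201, took 62.06% in replicate 2 and 65.58% in replicate 1, and that of Mmp23, Mmp23-201, took 68.70% and 55.66%.

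**Figure D3:**
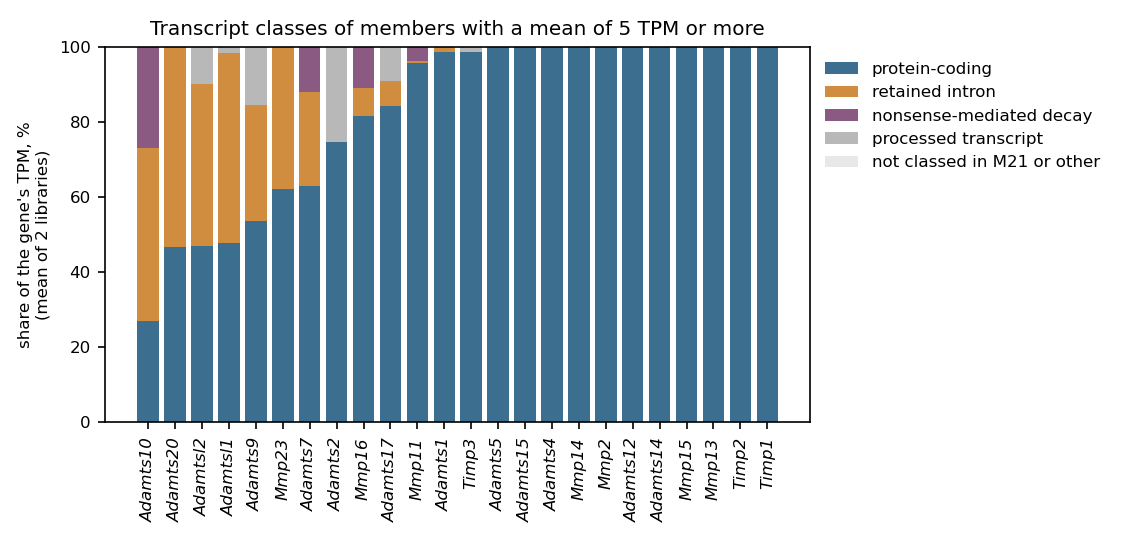
Share of each gene's TPM, in percent and as the mean of the 2 libraries, on transcripts of each annotated class, for the 24 members with a mean of 5 TPM or more. Blue is protein-coding, orange retained intron, purple nonsense-mediated decay and grey processed transcript. Adamts10 stands at the left with 27.2% protein-coding, and Mmp2, Mmp14, Mmp13, Timp2 and Timp1 are among those that are wholly protein-coding.

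Most members were close in the 2 libraries. Before centring, the median of 13996 protein-coding genes with a mean of 1 TPM or more was -0.14 on the log2(TPM + 1) scale for replicate 2 over replicate 1. Spike-in RNAs, which share the TPM total, took 11.7% of it in replicate 2 and 7.22% in replicate 1. Differences are given relative to that median. Of 37 members compared, 1 was past 1.5-fold higher in replicate 2, Mmp13, beside 3.19% of all genes compared, and 1 was past 1.5-fold lower, Adamtsl2, beside 0.550%. With 1 gene in each direction, the members' shares carry no more than those 2 genes. The median centred difference of the 37 members was -0.05, with 21 below 0, on a scale where all genes have a median of 0 and an SD of 0.27.

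Adamtsl2 had a centred log2 difference of -0.63, from 203 counts in replicate 2 and 256 in replicate 1. Relative to the median gene its count was 0.681-fold, with an interval of 0.563 to 0.821 for counting error alone, so that on counts it did not pass 1.5-fold. With counts scaled by edgeR's trimmed mean of M values (TMM) its log2 difference was -0.48, with DESeq2 size factors -0.55, on FPKM -0.58 and on protein-coding transcripts alone -0.33. Adamts19 had the lowest ratio on counts, 0.582-fold (interval 0.464 to 0.730), from 133 counts in replicate 2 and 196 in replicate 1, with a centred log2(TPM + 1) difference of -0.43. The chondrocyte markers given beside Mmp13 were also lower in replicate 2, and their part in the Adamtsl2 and Adamts19 values was not tested. Mmp13 remained past 1.5-fold under every alternative run, with log2 differences between 1.46 and 1.90.

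**Figure D4:**
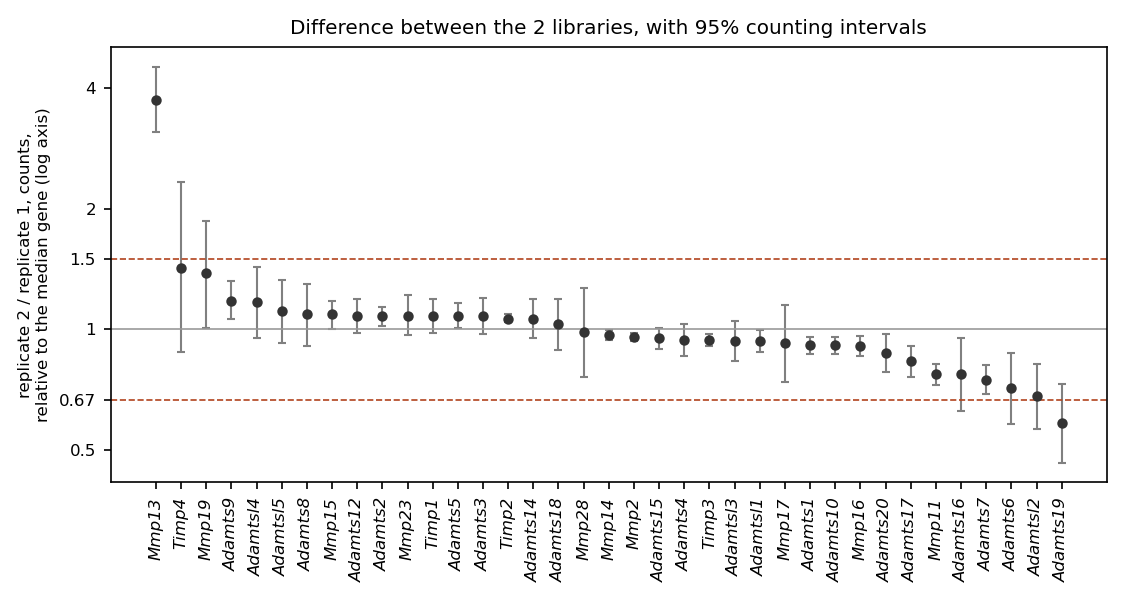
Count of replicate 2 over replicate 1, relative to the median gene and on a log axis, for the 37 members with a mean of 1 TPM or more, with exact 95% intervals for counting error alone. Dashed lines mark 1.5-fold either way. Mmp13 is at 3.74, all others but Adamts19 lie within the dashed lines, and the intervals of Timp4 and Mmp19 are wide.

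Other genes of the system were expressed together with the members. Of 16 listed activators, inhibitors and receptors that regulate metalloproteinases 14 were expressed and none passed 1.5-fold. Bsg (basigin, known as an inducer of metalloproteinases) led them at 643.45 TPM in replicate 2 against 685.27 TPM in replicate 1, followed by the serine protease inhibitor Serpine2 at 210.87 and 236.25 TPM and the clearance receptor Lrp1 at 103.09 and 115.38 TPM. Plaur lay just under 1.5-fold, at 9.53 TPM in replicate 2 against 6.73 TPM in replicate 1, a centred log2 difference of 0.58. On counts its interval was 1.30 to 1.90, for counting error alone. Reck, a membrane-anchored inhibitor of Mmp2 and Mmp14, had 32.15 TPM in replicate 2 against 38.25 TPM in replicate 1, and the convertase Furin had 13.09 and 14.87 TPM. Plg, the plasminogen gene known from liver, was below the expressed level, at 0.03 TPM in replicate 2 against 0.02 TPM in replicate 1.

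Of 15 listed matrix substrates 13 were expressed, with Col1a1, Col3a1 (2823.98 TPM in replicate 2 against 3080.32 TPM in replicate 1) and Col1a2 (2358.38 and 2048.69 TPM) highest, and Col2a1 alone was past 1.5-fold, lower in replicate 2. Among 17 related metalloproteinases and partners 14 were expressed and none passed 1.5-fold, with the procollagen C-proteinase enhancer Pcolce at 217.24 TPM in replicate 2 against 192.93 TPM in replicate 1, the C-proteinase Bmp1 at 54.45 and 57.11 TPM and the sheddase Adam10 at 48.29 and 54.76 TPM. All 9 listed cysteine and serine proteases of the matrix and their inhibitor were expressed and none passed 1.5-fold, led by the inhibitor Cst3 at 449.24 TPM in replicate 2 against 442.85 TPM in replicate 1, with the cathepsins Ctsb at 159.15 and 172.26 TPM and Ctsl at 130.47 and 141.09 TPM.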

How the data were processed

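Gene and transcript tables of 2 libraries of 1 group were used, estimated by the authors on build mm10 with GENCODE M4, per the text deposited with each library. What aligner, quantifier version and strand setting were used is not given in the sources used here. Per the file headers, the deposited expected counts estimate the reads of each gene and are not scaled. The same tables hold TPM and FPKM, deposited by the authors with spike-ins in the total. Percent values are the authors' deposited share of a gene's TPM per transcript.

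Symbols, biotypes and positions came from GENCODE M21, matched by Ensembl identifier for 42462 (98.0%) of 43346 genes. Ratios were taken on log2(TPM + 1), where changes of low genes come out too small, for genes with a mean of 1 TPM or more, centred on their median. Intervals (95%) and the floor of 3 counts used rounded expected counts and cover counting error only. The furin-type pattern was arginine, any residue, lysine or arginine, then arginine. The cysteine switch pattern was proline, arginine, cysteine, glycine, any residue, proline, then aspartate, and both were sought only ahead of the zinc site. The zinc pattern took glycine, asparagine or serine at the eighth codon, wider than the glycine first planned, and was chosen so after the sequences were seen. Protein sequences were not used here. Python 3.11.15, pandas 2.3.3, scipy 1.17.1, Biopython 1.88, BLAST 2.17.0, and R 4.3.3 were used, and DESeq2 1.42.0 and edgeR 4.0.16 gave scaling factors alone. The ratio rule was tested on simulated data with an assumed spread between libraries, which does not give its error rate in this pair. Stretches shared with other genes were sought with BLAST at 95% identity over 100 bases or more, and 12 of the 48 members had a match. Some matches were with genes overlapping on the opposite strand, such as Syn3 for Timp3 (1733 bases). Others were short stretches, such as 123 bases of Brca2 for Mmp17, so a match does not mean a near-copy of the gene. Members and lists were chosen with earlier results of these data known. Every member was accounted for, and of each list the 3 highest genes and each gene past 1.5-fold were to be named. Further genes, such as Reck, Furin and Comp for their role and Plaur for its nearness to 1.5-fold, were chosen after their values were seen. A few values of single genes are not reported here.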

Additional observations from a re-analysis of the deposited data

How the results depend on the processing

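With expression called at 5 TPM the number of expressed members was 22, and under the other thresholds and units run it was 32 to 38, against 37 as reported. The number past 1.5-fold was 2 as reported 1 with a 2-fold rule or on FPKM, and 3 with a pseudocount of 0.1. Mmp13 was the higher gene in each case. Adamtsl2 was then below the threshold (log2 difference -0.63 and -0.58), as it was with TMM and DESeq2 size factors, where the lower gene was Adamts19, and on protein-coding transcripts, an alternative chosen after seeing the data, where it was Adamts7. With the pseudocount of 0.1 both Adamtsl2 and Adamts19 were past 1.5-fold lower. Rescaled to protein-coding genes, the mean sums were 681 TPM for Mmp, 249 for Adamts, 54.1 for Adamtsl and 325 for Timp genes. On FPKM they were 355, 130, 28.2 and 169. Protein-coding transcripts alone gave 143 TPM for Adamts and 23.2 TPM for Adamtsl genes. The Timp over Mmp ratio was 0.478 as a mean, 0.588 on expected counts and 0.360 without the highest gene of each family. Leaving out either replicate gave 37 to 38 expressed members, sums of 502 to 581 TPM (Mmp), 180 to 215 TPM (Adamts), 38.2 to 48.0 TPM (Adamtsl) and 249 to 267 TPM (Timp), and a ratio of 0.460 to 0.497. A difference between the libraries needs both, so that none could be left out there. No paired analysis was possible because there is only 1 group. The signs of Mmp13 and Adamtsl2, the genes followed through these alternatives, did not reverse. Members near no difference did turn with the unit: Mmp23 was -0.03 on centred log2 TPM and 1.08-fold on counts, and Adamtsl5 was -0.01 and 1.11-fold. With 2 libraries, depth limits what can be said of the members below 1 TPM.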
